A study of Mus musculus with 2 samples.

Results

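Among cells of the mouse colon lamina propria, some droplet barcodes carried transcripts of T cells and of antigen-presenting cells at the same time. They are called dual barcodes here. A dual barcode had at least 2 unique molecular identifier (UMI) counts of the T cell receptor complex genes Cd3d, Cd3e and Cd3g in sum. It also had more than 10 UMIs of H2-Ab1, which encodes a chain of the class II major histocompatibility complex (MHC). Barcodes with at least 200 detected genes and at most 20% of UMIs from mitochondrial genes were considered, and 175 of these 8500 barcodes were dual. They were 158 of 5890 in the library labelled deficient in the long noncoding RNA lncly6c and 17 of 2610 in the library labelled wild type. Dual barcodes were thus chosen by their measured Cd3 and H2-Ab1 counts, which are therefore no result about them. Dual barcodes were set beside T-only barcodes, with the same Cd3 count and at most 10 H2-Ab1 UMIs (215 deficient-labelled and 80 wild-type-labelled). They were also set beside APC-only barcodes (antigen-presenting cells), with no Cd3 UMI and more than 10 H2-Ab1 UMIs (3499 deficient-labelled and 1211 wild-type-labelled).

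Both libraries came from male C57BL/6 mice aged 6 to 8 weeks and kept free of specific pathogens. In the deficient-labelled animals the whole lncly6c gene (1700016P04Rik) had been deleted from the germline by CRISPR-Cas9 with guides on either side of its 2 exons. The number of animals behind a library is not given in the labels. Each group was 1 library, so no test between groups or between kinds of barcode was possible. The intervals given are exact 95% intervals that cover counting error only, and a difference between the libraries cannot be told apart from a difference between genotypes. The names of the deposited files give the genotypes the other way round. No lncly6c UMI was counted in either library, so the gene gave no check, and the libraries are named by their labels throughout.

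A T cell recognises peptides held by MHC molecules, and CD4 T cells recognise those held by class II. The contact is adjusted by paired receptors and ligands. CD28 on the T cell gives a stimulating signal and CTLA4 an inhibiting one when they bind CD80 or CD86 on the antigen-presenting cell, and ICOS binds ICOSL. The antigen-presenting cell also secretes cytokines, among them interleukin 12 and interleukin 23, which share the p40 subunit encoded by Il12b. FLT3 is the growth factor receptor of conventional dendritic cells. The gut lamina propria holds many macrophages and dendritic cells with class II, and many T cells, among them FOXP3-positive regulatory T cells.

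Before any filter there were 6133 barcodes with 54773076 UMIs in the deficient-labelled library and 3020 with 23384895 UMIs in the wild-type-labelled one, and no barcode had under 500 UMIs. None of the 243 deficient-labelled and 410 wild-type-labelled barcodes removed by the gene and mitochondrial limits met the dual rule. The libraries shared 7 barcode sequences, none of them dual.

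Dual barcodes were a larger share of the deficient-labelled library, at 2.68% (2.28 to 3.13) of kept barcodes, than of the wild-type-labelled library, at 0.651% (0.380 to 1.04). Of the barcodes with at least 2 Cd3 UMIs, 158 of 373 were dual in the deficient-labelled library, or 42.4% (37.3 to 47.6). The wild-type-labelled count was 17 of 97, or 17.5% (10.6 to 26.6). The deficient-labelled share was the higher one under each of 8 sets of limits, the reported limits among them, with intervals that did not overlap. Each part of the rule was also met more often in the deficient-labelled library. H2-Ab1 exceeded 10 UMIs in 63.4% of its kept barcodes, against 47.5% in the wild-type-labelled library. T-only barcodes, by contrast, were 3.65% and 3.07% of kept barcodes in the deficient-labelled and the wild-type-labelled library.

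**Figure D1:**
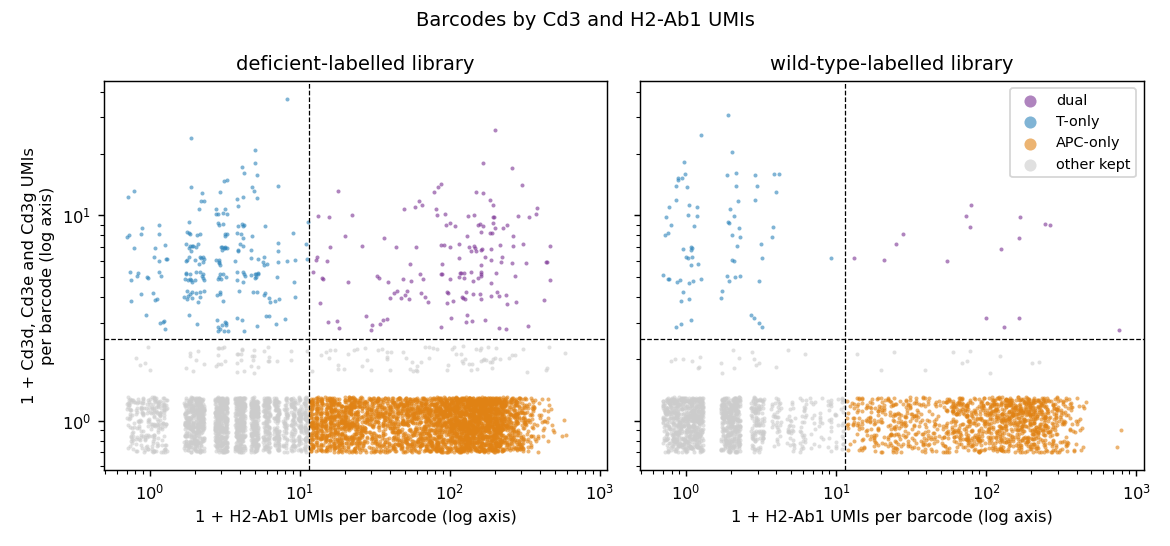
Each point is a kept barcode, with 1 plus its H2-Ab1 UMIs on the horizontal axis and 1 plus its summed Cd3d, Cd3e and Cd3g UMIs on the vertical axis, both log axes, and small random shifts keep equal counts from hiding each other. The dashed lines mark the rule, and the upper right field holds 158 dual barcodes in the deficient-labelled and 17 in the wild-type-labelled library.

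H2-Ab1 counts of the barcodes with at least 2 Cd3 UMIs formed a low and a high range, with fewer barcodes between. In the deficient-labelled library 33 of the 373 had none, 106 had 1 or 2 UMIs and 89 had over 100, while 18 had 6 to 10 and 16 had 11 to 20. Of the 97 wild-type-labelled barcodes 42 had none, 32 had 1 or 2 UMIs and 8 had over 100, while 1 had 6 to 10 and 2 had 11 to 20. Just inside the rule, with 11 to 13 H2-Ab1 UMIs, lay 7 deficient-labelled barcodes and 1 wild-type-labelled barcode, and as many, 7 and 1, lay just outside with 8 to 10. On the Cd3 side, 18 deficient-labelled and 4 wild-type-labelled dual barcodes had exactly 2 Cd3 UMIs. With 1 Cd3 UMI and more than 10 H2-Ab1 UMIs there were 75 deficient-labelled and 12 wild-type-labelled barcodes.

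Genes outside the rule were present on both sides of the dual barcodes. At least 1 UMI of the T cell receptor constant genes Trac, Trbc1 or Trbc2 was found in 156 of 158 deficient-labelled dual barcodes (98.7%) and 15 of 17 wild-type-labelled ones (88.2%). The share was 99.1% and 98.8% of T-only barcodes and 6.46% and 3.30% of APC-only barcodes of the deficient-labelled and the wild-type-labelled library. Dual barcodes had a median of 8 such UMIs in both libraries, against 8 in deficient-labelled and 11 in wild-type-labelled T-only barcodes. The class II genes H2-Aa, H2-Eb1 and Cd74 were all present in each of the 158 and each of the 17 dual barcodes. All of them were also present in 58.6% of deficient-labelled and 15% of wild-type-labelled T-only barcodes. In APC-only barcodes, also chosen by H2-Ab1, the shares were 99.8% and 99.7%, so presence alone adds little to the rule. Their summed median was 541 UMIs in deficient-labelled dual barcodes, against 437 in APC-only barcodes. It was 513 UMIs in wild-type-labelled dual barcodes, against 508 in APC-only barcodes. A deficient-labelled dual barcode thus carried about as many T cell receptor UMIs as a T-only barcode, at means of 9.61 and 9.23. A wild-type-labelled one carried fewer, at means of 8.53 and 12.45. Class II UMIs were about as many as in an APC-only barcode or somewhat more. Across the dual barcodes these sums did not move together, with a Spearman correlation of 0.04 over 158 deficient-labelled and -0.23 over 17 wild-type-labelled barcodes of 1 library each.

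Dual barcodes were deep. Their median was 15936 UMIs in the deficient-labelled library (quartiles 12035 and 22359), against 4701 in T-only and 10320 in APC-only barcodes. Wild-type-labelled dual barcodes had 17737 UMIs (quartiles 13751 and 20081), against 5842 in T-only and 12784 in APC-only barcodes. The dual median was 1.06 times the sum of the T-only and APC-only medians in the deficient-labelled library and 0.952 times that sum in the wild-type-labelled library. The number of detected genes, at medians of 3574.5 and 3752 in deficient-labelled and wild-type-labelled dual barcodes, was 0.856 and 0.793 of the corresponding sum. The median mitochondrial share was 4.05% and 3.89% in the same order of libraries.

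The dual share climbed with depth in both libraries. Among deficient-labelled barcodes with at least 2 Cd3 UMIs, 2 of 126 with 2000 to 5000 UMIs were dual (1.59%). The share was 23.2% (23 of 99) from 5000 to 10000 UMIs, 89.5% (85 of 95) from 10000 to 20000 UMIs and 96.0% (48 of 50) above. The wild-type-labelled counts were 0 of 25, which allows up to 13.7%, then 3 of 54 (5.56%), 9 of 13 (69.2%) and 5 of 5 in the same bins. The rule asks for raw counts of H2-Ab1, whose UMIs followed total UMIs across the dual barcodes with a Spearman correlation of 0.854 (158 barcodes) and 0.844 (17 barcodes) in the deficient-labelled and the wild-type-labelled library. Total UMIs include those of H2-Ab1, and the correlation is a description. The deficient-labelled share was the higher one in each of the first 3 bins, with intervals that overlapped. As a share of all kept barcodes with 10000 to 20000 UMIs, dual barcodes were 4.96% (3.98 to 6.10) in the deficient-labelled and 1.25% (0.572 to 2.35) in the wild-type-labelled library. From 5000 to 10000 UMIs these shares were 1.31% (0.833 to 1.96) and 0.667% (0.138 to 1.94), with overlap. Above 20000 UMIs they were 10.6% (7.95 to 13.9) and 2.02% (0.660 to 4.66). Shares of kept barcodes also carry how often Cd3 was found. From 10000 to 20000 UMIs, 95 of 1714 deficient-labelled and 13 of 722 wild-type-labelled kept barcodes had at least 2 Cd3 UMIs. The part of depth in the gap was not tested. The deficient-labelled library also held more kept barcodes, 5890 against 2610, and the part of that number in the share was not tested.

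**Figure D2:**
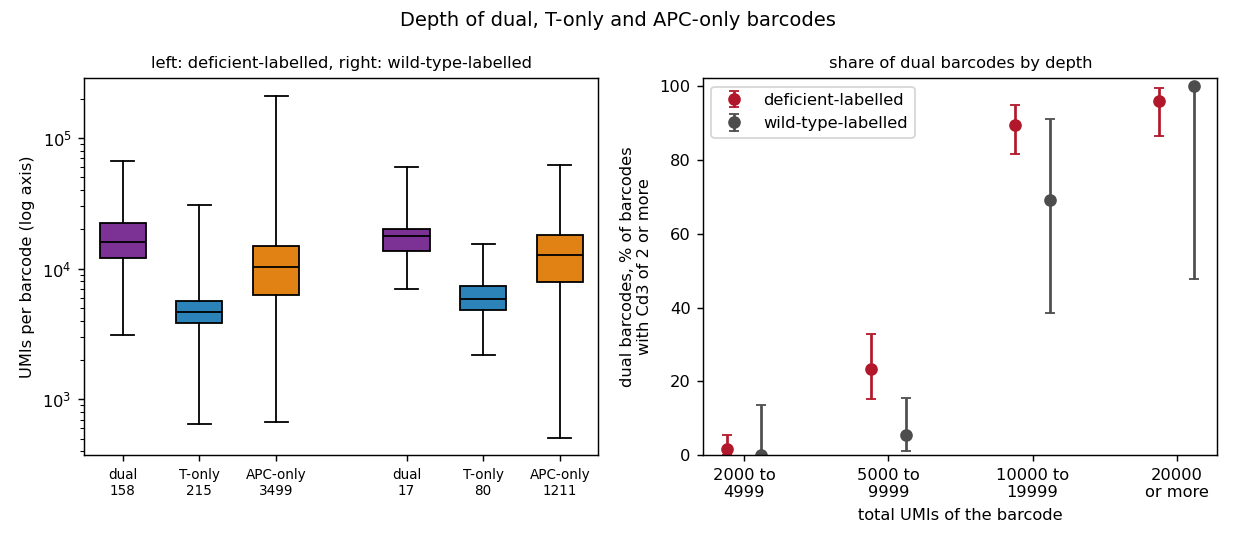
Left, total UMIs per barcode (log axis) of dual, T-only and APC-only barcodes in the deficient-labelled and the wild-type-labelled library, with boxes from the lower to the upper quartile, a line at the median, whiskers to the lowest and highest barcode and the number of barcodes under each box. Right, dual barcodes as a percentage of barcodes with at least 2 Cd3 UMIs in bins of total UMIs, with exact 95% intervals, from 1.59% to 96.0% in the deficient-labelled library.

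Free RNA taken up by droplets gives a background for such shares. Barcodes assigned by their markers to B cells, which make class II but no T cell receptor, had at least 2 Cd3 UMIs in 3 of 393 cases in the deficient-labelled library (0.763%), at a median of 3689 UMIs. Among wild-type-labelled B cell-marker barcodes there were 0 of 70, which allows a share of up to 5.13%. Neutrophil-marker barcodes, which should lack both, had more than 10 H2-Ab1 UMIs in 0 of 115 deficient-labelled cases, which allows up to 3.16%, and in 2 of 252 wild-type-labelled cases. They were shallow, at medians of 2258 and 3025 UMIs in the deficient-labelled and the wild-type-labelled library. Fibroblast-marker barcodes were deeper, at medians of 7368 and 10990 UMIs, and exceeded 10 H2-Ab1 UMIs in 1 of 191 deficient-labelled and 0 of 13 wild-type-labelled cases, where 0 of 13 allows up to 24.7%. Fewer barcodes were assigned than held the markers. At least 3 fibroblast markers were present in 306 deficient-labelled and 30 wild-type-labelled barcodes without Cd3 UMIs. Of these, 48 and 10 had more than 10 H2-Ab1 UMIs. For neutrophil markers it was 30 of 159 deficient-labelled and 21 of 310 wild-type-labelled barcodes. The low shares thus depend on the assignment. Plasma cell-marker barcodes, found in the deficient-labelled library, were as deep as dual barcodes at a median of 21813 UMIs. Of these 33 barcodes 11 had more than 10 H2-Ab1 UMIs (33.3%, 18.0 to 51.8) and 3 had at least 2 Cd3 UMIs (9.09%, 1.92 to 24.3). Epithelial-marker barcodes exceeded 10 H2-Ab1 UMIs in 2 of 8 deficient-labelled and 2 of 10 wild-type-labelled cases. The shares in barcodes assigned to neutrophils and fibroblasts in the deficient-labelled library lay below the 42.4% among barcodes with Cd3, and those of wild-type-labelled neutrophil-marker barcodes below 17.5%. The 42.4% and 17.5% cover all depths. At 2000 to 5000 UMIs, near the neutrophil-marker depth, the deficient-labelled dual share was 1.59% (0.193 to 5.62) and the wild-type-labelled count 0 of 25. No contrast with neutrophil-marker barcodes is therefore read. The plasma cell and epithelial shares had intervals that contained the share among barcodes with Cd3 of their library.

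Markers of other cell pairs also met in single barcodes. For this count a barcode held a cell type's markers when at least 4 of 6 were present, and the comparison was chosen after the dual barcodes had been seen. Macrophage markers were present in 62 of 373 deficient-labelled barcodes with at least 2 Cd3 UMIs (16.6%, 13 to 20.8) and in 8 of 97 wild-type-labelled ones (8.25%, 3.63 to 15.6). Among barcodes with B cell markers they were present in 26 of 458 (5.68%, 3.74 to 8.21) in the deficient-labelled and 3 of 74 (4.05%) in the wild-type-labelled library. Among barcodes with fibroblast markers they were present in 23 of 283 (8.13%, 5.22 to 11.9) and 2 of 22 (9.09%). Markers of type 2 conventional dendritic cells (cDC2) were present in 14.7% (11.3 to 18.8) of deficient-labelled barcodes with Cd3, against 3.93% (2.35 to 6.14) of those with B cell markers. Neutrophil markers met cDC1 markers in 1 of 140 deficient-labelled and 3 of 270 wild-type-labelled barcodes. Coincidence of markers was therefore not limited to T cells, and macrophage markers were found more often beside Cd3 than beside B cell markers in the deficient-labelled library, by intervals that did not overlap. Depth differs between these kinds of barcode, and its part in the order was not tested.

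The T cell side of the dual barcodes was measured first. Levels of T cell genes are given per 100 UMIs of Trac, Trbc1 and Trbc2 in sum, which the rule did not use and which APC-only barcodes nearly lack. Reads of Trbc1 and Trbc2, whose constant regions are near-identical, cannot be assigned to either with certainty, so they are used in sum. On that scale, Icos, Cd28 and Foxp3 were higher in dual than in T-only barcodes of both libraries, with intervals of the log2 ratio above 0, and Ctla4 was higher in the deficient-labelled library, while its wild-type-labelled direction changed with the measure. Wild-type-labelled dual barcodes had fewer receptor UMIs than T-only ones, at means of 8.53 and 12.45, which raises every wild-type-labelled ratio on that scale.

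Ctla4 (ENSMUSG00000026011), the inhibitory receptor for CD80 and CD86, had 508 UMIs in deficient-labelled dual barcodes and 389 in T-only barcodes, or 3.22 and 1.81 UMIs per barcode. Per 100 receptor UMIs this was 33.4 in dual and 19.6 in T-only barcodes (log2 ratio 0.77, 0.58 to 0.96). Wild-type-labelled Ctla4 had 39 UMIs in dual and 184 in T-only barcodes, or 2.29 and 2.30 UMIs per barcode, and 26.9 and 18.5 per 100 receptor UMIs (0.54, 0.00 to 1.05). The wild-type-labelled value rested on few barcodes, since 3 of them held 79.5% of the dual UMIs, against 20.5% in the deficient-labelled library. Without the deepest barcodes, above 20000 UMIs, it was -1.55, and as a mean over barcodes it was -0.43, so its direction was not stable. APC-only barcodes had 0.10 Ctla4 UMIs per barcode in the deficient-labelled and 0.06 in the wild-type-labelled library.

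Icos (the inducible costimulator) had 2.41 UMIs per barcode in deficient-labelled dual and 1.71 in T-only barcodes, which was 25.1 and 18.5 per 100 receptor UMIs (log2 ratio 0.44, 0.22 to 0.65). Wild-type-labelled dual barcodes had 2.35 Icos UMIs and T-only barcodes 1.85, or 27.6 and 14.9 per 100 receptor UMIs (0.89, 0.35 to 1.41). Cd28, the main stimulating receptor for CD80 and CD86, had 38.1 per 100 receptor UMIs in deficient-labelled dual and 32.7 in T-only barcodes (0.22, 0.06 to 0.38). Its wild-type-labelled values were 51.7 in dual and 30.9 in T-only barcodes (0.74, 0.36 to 1.11). Tnfrsf4, which encodes the costimulatory receptor OX40, was at 1.36 (1.04 to 1.69) in the deficient-labelled library, where 244 UMIs were spread over 73 dual barcodes. It was at -0.49 (-1.75 to 0.56) in the wild-type-labelled library, from 8 UMIs, so its directions differed and the difference was not tested. Tnfrsf9, the gene of the costimulatory receptor 4-1BB, was at 0.69 (0.44 to 0.94) and 0.44 (-0.33 to 1.15) in the deficient-labelled and the wild-type-labelled library.

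Foxp3, the lineage factor of regulatory T cells, had at least 1 UMI in 30 of 158 deficient-labelled dual barcodes (19.0%, 13.2 to 26) and 20 of 215 T-only barcodes (9.30%, 5.78 to 14.0). Among wild-type-labelled barcodes it was found in 4 of 17 dual (23.5%, 6.81 to 49.9) and 6 of 80 T-only barcodes (7.5%, 2.80 to 15.6). Only 6 of 3499 deficient-labelled and 1 of 1211 wild-type-labelled APC-only barcodes had a Foxp3 UMI. Per 100 receptor UMIs its log2 ratio of dual over T-only was 0.95 (0.37 to 1.53) in the deficient-labelled and 2.14 (0.75 to 3.45) in the wild-type-labelled library, from 65 and 9 dual UMIs. Of the dual barcodes with Foxp3, 25 of 30 deficient-labelled and 4 of 4 wild-type-labelled ones also had Ctla4. Il2ra, the interleukin 2 receptor chain CD25, was at 1.37 (1.0 to 1.74) and 1.49 (0.19 to 2.67). Part of its UMIs can come from the antigen-presenting side, with 0.18 per deficient-labelled APC-only barcode against 1.18 per dual barcode. Izumo1r, the gene of folate receptor 4 on regulatory T cells, was at 1.33 (0.66 to 2.03) in the deficient-labelled and 0.87 (-1.18 to 2.52) in the wild-type-labelled library.

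Coreceptor and cytotoxic genes also differed between dual and T-only barcodes of the deficient-labelled library. There Cd4 was found in 59 of 158 dual (37.3%, 29.8 to 45.4) and 52 of 215 T-only barcodes (24.2%, 18.6 to 30.5), although 4.34% of APC-only barcodes had it too. Among APC-only barcodes assigned by their markers to macrophages it was found in 17.9%, at 0.42 UMIs per barcode, against 0.39 per T-only barcode, so no T cell difference is read from Cd4. Cd8b1, the CD8 beta chain gene, was found in 17.7% of dual and 19.1% of T-only barcodes, and per 100 receptor UMIs it was lower in dual barcodes (-0.61, -1.07 to -0.17). Trdc, the constant gene of the delta receptor chain, was lower as well (-1.17, -1.69 to -0.66), as were the cytotoxic granule gene Nkg7 (-1.19, -1.51 to -0.88) and the chemokine gene Xcl1 (-2.02, -2.39 to -1.67). In the wild-type-labelled library Cd8b1 was at 0.12 from 3 dual UMIs, Nkg7 at -0.16 (-1.12 to 0.68) and Xcl1 at 0.30 (-0.35 to 0.89). Trdc had 0 UMIs in the 17 wild-type-labelled dual barcodes. The T cell surface genes Cd5 and Cd6 were higher in dual barcodes of both libraries, Cd5 at 1.17 (0.75 to 1.61) and 1.59 (0.57 to 2.53) and Cd6 at 1.07 (0.64 to 1.5) and 1.33 (0.19 to 2.37) in deficient-labelled and wild-type-labelled barcodes. They belong to a list of 12 T cell genes that did not rise as a whole. Against the summed T-only and APC-only means, 3 of 12 were over 1.5-fold higher and 0 lower in the deficient-labelled library. In the wild-type-labelled library 0 of 7 measured were higher and 3 lower.

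Shares of barcodes with a UMI follow depth, so each barcode was also thinned at random to 2000 UMIs. A thinned dual barcode then holds fewer T cell UMIs than a thinned T-only barcode. After thinning, Ctla4 was found in 25.9% of deficient-labelled dual and 25.9% of T-only barcodes, against 50.6% and 36.3% unthinned, with 0 dual and 3 T-only barcodes too shallow. Icos was found in 22.2% of dual and 33.5% of T-only barcodes after thinning, Cd28 in 33.5% and 58.0%, Foxp3 in 4.43% and 5.19%, and Cd4 in 6.33% and 10.8%. Wild-type-labelled Ctla4 was found in 29.4% of dual and 17.5% of T-only barcodes after thinning, with intervals that overlapped. The thinned deficient-labelled shares of Icos, Cd28 and Foxp3 gave the other order from their levels per receptor UMI, and Ctla4 gave none, so no order is read from them.

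**Figure D3:**
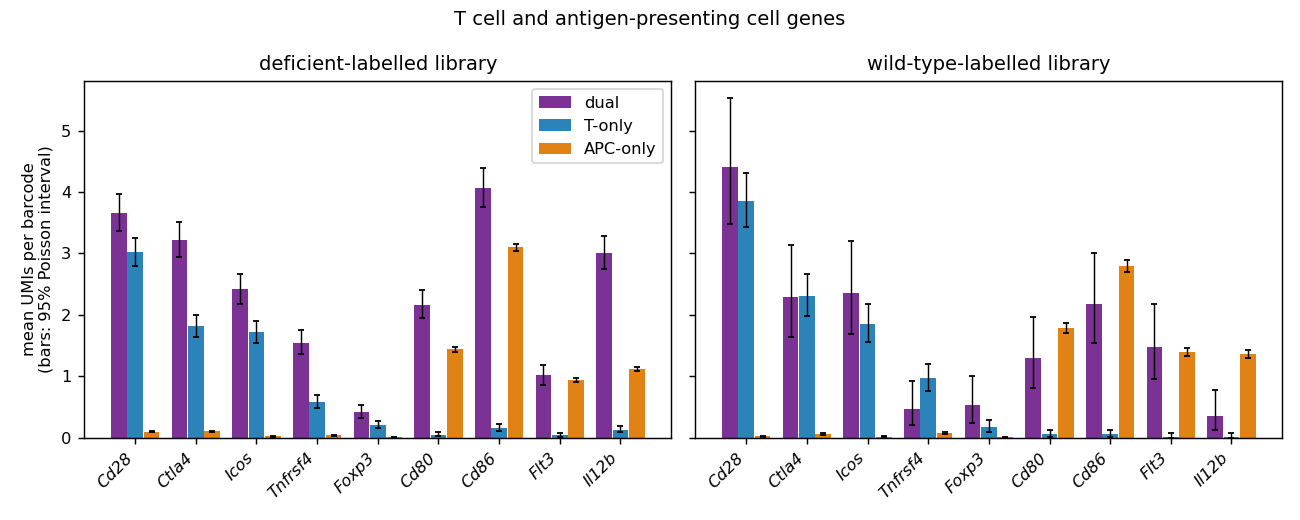
Mean UMIs per barcode of T cell genes (Cd28, Ctla4, Icos, Tnfrsf4, Foxp3) and antigen-presenting cell genes (Cd80, Cd86, Flt3, Il12b) in dual, T-only and APC-only barcodes of each library, with exact 95% Poisson intervals. Il12b stood at 3.01 in deficient-labelled and 0.35 in wild-type-labelled dual barcodes.

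The antigen-presenting side was measured per 100 UMIs of H2-Aa, H2-Eb1 and Cd74 in sum. Il12b (p40) had 475 UMIs in the 158 deficient-labelled dual barcodes, or 3.01 per barcode, against 1.11 in APC-only and 0.13 in T-only barcodes. Relative to class II this was 0.503 in dual and 0.233 in APC-only barcodes (log2 ratio 1.11, 0.97 to 1.25). The 17 wild-type-labelled dual barcodes had 6 Il12b UMIs, or 0.35 per barcode, against 1.36 in APC-only barcodes, which was 0.0558 and 0.250 per 100 class II UMIs (-2.16, -3.61 to -1.04). The Il12b UMIs lay in few barcodes, and that spread is not covered by the counting interval. In deficient-labelled dual barcodes the UMIs lay in 23 barcodes (14.6%, 9.46 to 21), with 44.8% of them in 3 barcodes and 109 in one. The 6 wild-type-labelled UMIs lay in 1 barcode, the deepest dual one of that library with 59868 UMIs. Il12b was found in 9.40% (8.46 to 10.4) of deficient-labelled and 7.60% (6.17 to 9.24) of wild-type-labelled APC-only barcodes, and in 1.40% and 1.25% of T-only barcodes. The shares of barcodes with Il12b therefore overlapped between dual and APC-only barcodes in both libraries. After thinning to 2000 UMIs they were 8.23% (4.45 to 13.7) of dual and 5.18% (4.46 to 5.97) of APC-only barcodes in the deficient-labelled library.

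Flt3 was close to the APC-only level. It had 1.01 UMIs per barcode in deficient-labelled dual and 0.93 in APC-only barcodes, or 0.170 and 0.196 per 100 class II UMIs (log2 ratio -0.21, -0.44 to 0.02). In the wild-type-labelled library it had 1.47 UMIs in dual and 1.39 in APC-only barcodes, or 0.232 and 0.255 per 100 class II UMIs (-0.13, -0.77 to 0.43). T-only barcodes had 0.04 and 0.01 Flt3 UMIs in the deficient-labelled and the wild-type-labelled library. Il12b and Flt3 met in 11 of 158 deficient-labelled dual barcodes (6.96%, 3.53 to 12.1) and 5.66% of APC-only barcodes. They met in 1 of 17 wild-type-labelled dual and 4.95% of APC-only barcodes.

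Of the ligand genes Cd80 and Cd86, which encode the partners of CD28 and CTLA4, Cd80 had opposite signs in the libraries, and Cd86 was lower in wild-type-labelled dual barcodes. Cd80 had 0.362 UMIs per 100 class II UMIs in deficient-labelled dual and 0.301 in APC-only barcodes (log2 ratio 0.27, 0.10 to 0.42). In the wild-type-labelled library it had 0.205 in dual and 0.328 in APC-only barcodes (-0.68, -1.36 to -0.08), from 22 dual UMIs. Cd86 was at 0.07 (-0.05 to 0.18) in the deficient-labelled and -0.58 (-1.09 to -0.11) in the wild-type-labelled library. Icosl was at -0.09 (-0.37 to 0.17) and -0.94 (-2.26 to 0.11). Ccr7, the receptor that guides mature dendritic cells and naive T cells to lymph nodes, was at 0.44 (0.37 to 0.50) and 0.06 (-0.18 to 0.29), and T-only barcodes had 2.76 and 2.38 UMIs of it themselves. Receptor and ligand met in many barcodes. T-only and APC-only barcodes were each chosen for lacking 1 side, and dual barcodes were deeper. The order of the following shares is therefore no result about contact, and no share expected from the separate genes was calculated. Cd28 stood beside Cd80 or Cd86 in 110 of 158 deficient-labelled dual barcodes (69.6%, 61.8 to 76.7), against 13% of T-only and 2.72% of APC-only barcodes. Ctla4 stood beside Cd80 or Cd86 in 71 of them (44.9%, 37.0 to 53.0), against 8.37% of T-only and 3.80% of APC-only barcodes.

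Dual barcodes were then assigned to a class of antigen-presenting cell by the list of 6 markers with the most members present, at least 3 and more than any other list. Such a class is a range of a score and not a cell type. Macrophage was the commonest class by this rule, with 52 of 158 deficient-labelled dual barcodes (32.9%, 25.7 to 40.8), against 625 of 3499 APC-only barcodes (17.9%, 16.6 to 19.2). It held 7 of 17 wild-type-labelled dual barcodes (41.2%, 18.4 to 67.1) and 17.2% of APC-only barcodes (15.1 to 19.4). Under this rule the macrophage share was higher among dual than APC-only barcodes in each library, with intervals that did not overlap in the deficient-labelled one. The cDC2 class held 42 deficient-labelled dual barcodes (26.6%, 19.9 to 34.2), against 23.8% of APC-only barcodes, and 4 wild-type-labelled ones (23.5%, 6.81 to 49.9), against 34.6%. The class of type 1 conventional dendritic cells (cDC1) held 9 deficient-labelled dual barcodes (5.70%, 2.64 to 10.54), against 13% of APC-only barcodes (11.9 to 14.1). The B cell class held 5 deficient-labelled dual barcodes (3.16%, 1.04 to 7.23), against 11.8% (10.8 to 12.9). Monocytes held 8, mature dendritic cells 3 and plasmacytoid dendritic cells 1, and 38 (24.1%) stayed without a class. In the wild-type-labelled library cDC1 held 1 dual barcode, 5 had no class and the other classes were empty, which at 17 barcodes allows each a share of up to 19.5%.

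The order depended on the lead that the rule asks for. Counted by at least 3 markers of a list, whatever the other lists, cDC2 markers were present in 89 of 158 deficient-labelled dual barcodes (56.3%, 48.2 to 64.2), against 33.6% of APC-only barcodes. Macrophage markers were then present in 77 (48.7%, 40.7 to 56.8), against 25.2%, and cDC1 markers in 28 (17.7%, 12.1 to 24.6), against 17.2%. Markers of innate lymphoid cells (ILC2 or ILC3) were present in 22 (13.9%, 8.94 to 20.3), against 1.51% of APC-only and 4.19% of T-only barcodes. Plasmacytoid dendritic cell markers were present in 12 (7.59%, 3.99 to 12.9), against 2.11% of APC-only barcodes. For monocyte markers it was 36 (22.8%, 16.5 to 30.1), against 14.2%. B cell markers went the other way, at 9 (5.70%, 2.64 to 10.54), against 12.9%. The part of depth in these shares was not tested. Many barcodes were near the limits of a class. Among the deficient-labelled dual barcodes 23 had exactly 3 markers, 46 led by 1 marker and 20 were tied. Deep barcodes show more markers, and after thinning to 2000 UMIs the macrophage class held 22.2% and the cDC2 class 8.86% of deficient-labelled dual barcodes. Macrophage markers summed to 23.3 UMIs per deficient-labelled dual barcode (22.5 to 24.0), against 0.61 in T-only and 13.3 in APC-only barcodes. The sum was 29.5 (26.9 to 32.2) in wild-type-labelled dual barcodes, against 0.04 in T-only and 13.4 in APC-only barcodes. C1qa, a complement gene of resident macrophages, was higher per class II UMI in dual than in APC-only barcodes, at 0.50 (0.41 to 0.59) and 1.28 (1.05 to 1.5). With APC-only barcodes weighted to the class mix of the dual ones it was at -0.24 and 0.06 in the deficient-labelled and the wild-type-labelled library.

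**Figure D4:**
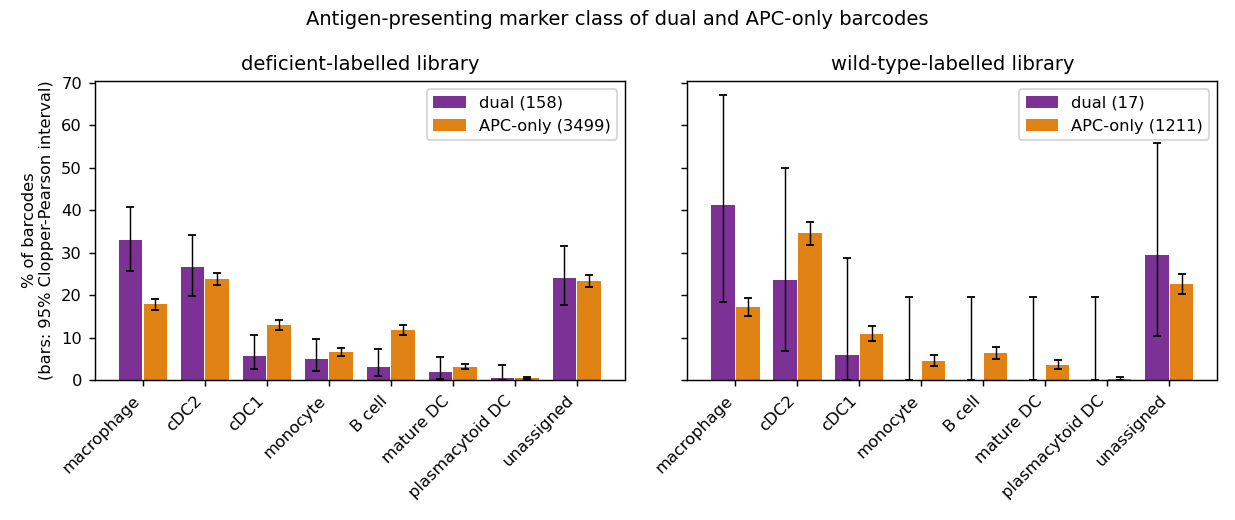
Percentage of dual and of APC-only barcodes in each marker class, by library, with exact 95% Clopper-Pearson intervals. The macrophage class held 32.9% of deficient-labelled dual and 17.9% of APC-only barcodes, and 41.2% and 17.2% in the wild-type-labelled library.

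Each gene of the dual barcodes was last set against the sum of the mean UMIs of a T-only and an APC-only barcode of the same library. This measure was chosen after the data had been seen. It covered 7928 genes in the deficient-labelled and 2336 in the wild-type-labelled library with enough UMIs, 20 on average of the observed and the summed count. Most genes lay close to the sum. The median log2 ratio was 0.13 (quartiles -0.01 and 0.29) in the deficient-labelled library, where 4.82% of genes were over 1.5-fold higher and 1.68% over 1.5-fold lower than the sum. The wild-type-labelled median was -0.07 (quartiles -0.27 and 0.16), with 4.71% of genes higher and 7.23% lower by that size.

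Against that background, 4 of 9 measured costimulation receptor genes were over 1.5-fold above the sum in the deficient-labelled library and 0 below, with a median of 0.48. They were Tnfrsf4 (1.33), the inhibitory receptor gene Lag3 (0.91), Ctla4 (0.75) and Tnfrsf9 (0.64), while Icos was at 0.48 and Cd28 at 0.24. Among wild-type-labelled barcodes 4 members were measured and all lay within 1.5-fold, with Ctla4 at -0.04 and Icos at 0.34. Of the 12 regulatory T cell genes 11 were measured in deficient-labelled barcodes, 7 were above and 0 below, with a median of 0.75. Ctla4 and Tnfrsf4 belong to both lists. Also above were Ikzf4 (1.34), which encodes the factor Eos, Foxp3 (1.0), Il2ra (0.92) and the cytokine gene Il10 (0.80), which macrophages also make. Ikzf2, the gene of the factor Helios, was at -0.29. In wild-type-labelled barcodes 4 of these genes were measured, with 0 above and 1 below, Ikzf2 at -1.41. Of 10 helper and cytotoxic T cell genes measured in the deficient-labelled library, 2 were above and 5 below, at a median of -0.68. Those above were Maf (0.91) and Gata3 (0.68), and those below were the interferon gene Ifng (-1.66), the T-bet gene Tbx21 (-1.63), Trdc (-1.11), Cd8a (-1.01) and Cxcr6 (-0.80). The only one measured in the wild-type-labelled library was Maf, at 1.26. Genes of naive T cells, such as Tcf7 and Lef1, lay within 1.5-fold of the sum for all measured members, 8 deficient-labelled and 6 wild-type-labelled.

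T cell signalling genes followed the sum in the deficient-labelled library, where all 12 lay within 1.5-fold with a median of 0.07. The kinase gene Lck was at -0.07 and the adaptor gene Lat at 0.21. In the wild-type-labelled library 5 were measured and 2 were below, among them the transcription factor gene Nfatc1 (-0.75). All 9 MHC class II genes lay within 1.5-fold in the deficient-labelled library, at a median of 0.28, and 2 of 9 lay below in the wild-type-labelled library, H2-DMb2 (-1.20) and H2-Ob (-0.90), which are class II accessory genes high in B cells. Costimulatory ligand genes had a median of 0.36 over 7 deficient-labelled members, none past 1.5-fold. In wild-type-labelled barcodes the median was -0.55 over 5 members, with 2 below, Cd40 (-0.75) and Tnfsf9 (-0.65). Of 5 interleukin 12 family genes measured in the deficient-labelled library 2 were above, Il12b (1.27) and the interleukin 23 subunit gene Il23a (1.02). The family member Ebi3 was the only one measured in the wild-type-labelled library, at 0.46.

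Dendritic cell identity genes stayed near the sum, with 11 of 12 within 1.5-fold in the deficient-labelled library and 6 of 7 in the wild-type-labelled library. The exceptions were Plet1 (-1.39), a gene of intestinal cDC2, in deficient-labelled barcodes and the factor gene Irf8 (0.68) in wild-type-labelled ones. Of the adhesion and synapse genes, 11 of 12 deficient-labelled and 9 of 9 wild-type-labelled members lay within 1.5-fold, among them the integrin genes Itgal (0.03 and 0.16) and Itgb2 (0.23 and -0.19) and their ligand gene Icam1 (0.34 and -0.12). The one above was Cd6 (1.02), whose product binds ALCAM. Of 11 cell cycle genes measured in the deficient-labelled library 1 was below, Ccnb2 (-1.23), and Mki67 was at 0.02. Immediate-early genes lay within 1.5-fold in deficient-labelled barcodes (12 of 12, median 0.23). In wild-type-labelled barcodes 6 of 12 were above (median 0.48), among them Egr1 (1.42), Jun (1.28) and Hspa1a (1.18), a heat shock gene.

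Antigen-presenting class markers departed from the sum in the direction of the classes. Macrophage markers were above for 5 of 6 genes in each library, at medians of 0.83 and 1.18. With APC-only barcodes weighted to the same class mix, 0 of 6 were past 1.5-fold in either library, at medians of 0.04 and 0.18. Of all genes, 3.8% were then higher and 1.37% lower by that size in deficient-labelled barcodes, and 5.52% and 6.55% in wild-type-labelled ones. All 5 measured cDC2 markers were above in the deficient-labelled library (median 0.60), and 0 of 5 were with the class mix matched. Of 5 measured B cell markers 4 were below (median -1.11), against 0 below and 1 above with the class mix matched. Barcodes were classed by these same markers, so the matched values are a description of the weighting.

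**Figure D5:**
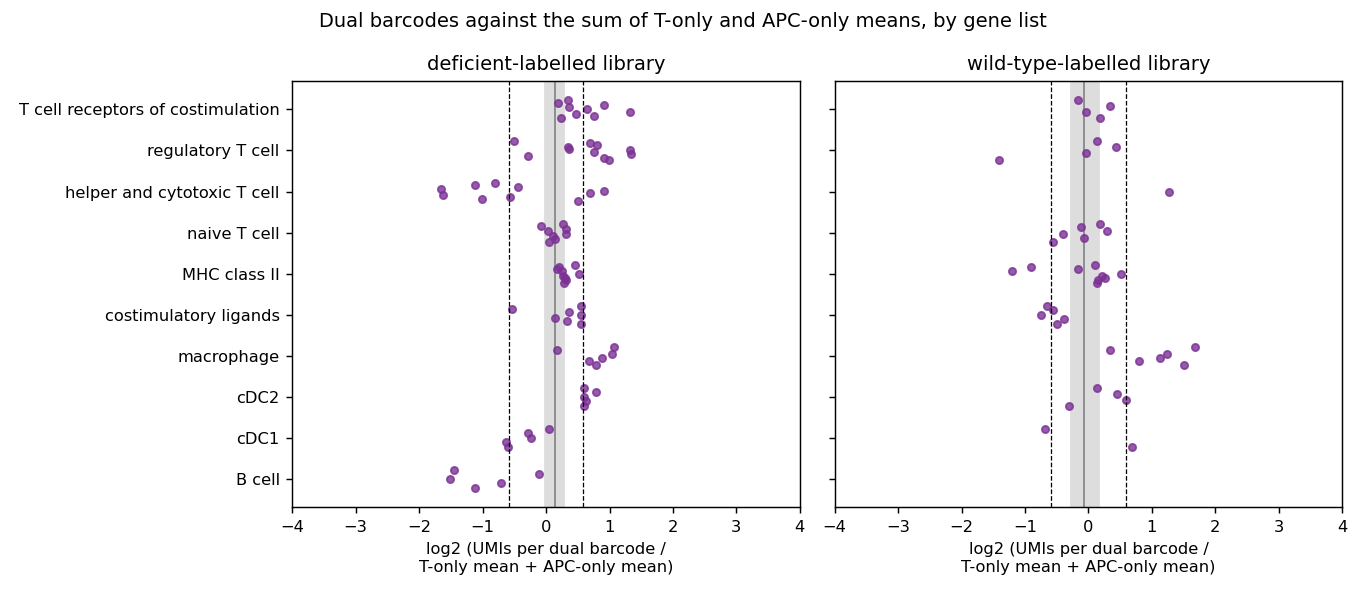
Each point is a measured gene of a list, at the log2 ratio of its mean UMIs per dual barcode over the sum of the T-only and APC-only means, by library. The grey line and band are the median and quartiles of all measured genes and the dashed lines mark 1.5-fold, and macrophage markers lie to the right in both libraries, at medians of 0.83 and 1.18.

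Few genes exceeded both T-only and APC-only barcodes in their share of all UMIs, given as CPM, the UMIs of a gene scaled to a common library total. Of 2226 genes with at least 20 UMIs in dual barcodes of each library, 117 were higher in CPM in dual than in T-only and in APC-only barcodes of both libraries, and 1 by over 1.5-fold in every such comparison. That one was Pf4, a chemokine gene expressed by gut macrophages. It had 97.2 CPM in deficient-labelled dual barcodes, against 16.6 in T-only and 59.3 in APC-only barcodes. The wild-type-labelled values were 161 CPM in dual, 4.03 in T-only and 90.5 in APC-only barcodes, but 36 of the 53 dual UMIs (67.9%) lay in 1 barcode and 90.6% in 3. Among the next in order were Dst, Ms4a7, Mrc1, the selenoprotein gene Selenop, the chemokine gene Ccl4, Ecm1, Gadd45g and Nfic, of which Mrc1 encodes the macrophage mannose receptor. Against the sum, Pf4 was at 1.24 and 1.29 in the deficient-labelled and the wild-type-labelled library, and with the class mix matched at 0.54 and 0.14. Mrc1 was at 1.04 and 1.23, and at 0.57 and 0.55 when matched. The genes lowest against both were Atxn2l, Lin54, Cox6c, Cct7, Dennd4a, Dyrk2, Nop10, Adipor2, Supt4a and Sub1, widely expressed genes. None of the 77 such genes was lower by over 1.5-fold against both kinds of barcode in both libraries, though Cct7 was in the wild-type-labelled library (-0.79 against T-only and -0.61 against APC-only barcodes).

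Deficient-labelled and wild-type-labelled dual barcodes were compared by log2 ratios of their CPM, with the deficient-labelled value on top. The comparison covered 5900 genes with at least 50 UMIs in the sum of both libraries. Deficient-labelled dual barcodes held 2942912 UMIs and wild-type-labelled ones 329392. A gene could therefore pass through its deficient-labelled count alone, and the shares of higher and lower genes are a description. With 17 wild-type-labelled barcodes, 17.2% of genes were over 1.5-fold higher in deficient-labelled barcodes and 10.7% were lower by that size, around a median of 0.04. With at least 200 UMIs per gene the counts were 257 higher and 124 lower, in place of 1013 and 629. The number of genes measured at that limit was not counted, so no share is given. All 6 measured costimulatory ligand genes were higher, at a median of 0.88, among them Cd40 (1.25) and Cd86 (0.96). Il12b was higher at 3.15 (2.01 to 4.6), from 475 and 6 UMIs, and Il23a was at 2.75, from 60 UMIs and 1 UMI. Both passed the limit through their deficient-labelled counts, so their direction is no result. Of 8 costimulation receptor genes 4 were higher and 0 lower, with Tnfrsf4 at 1.77 (0.77 to 3.0), Ctla4 at 0.54 and Icos at 0.09. Immediate-early genes were lower for 6 of 12 members (median -0.67), among them Egr1 (-2.18), Jun (-1.37) and Fos (-1.26). The direction was not particular to dual barcodes. The list summed to 6601 CPM in deficient-labelled and 9930 in wild-type-labelled dual barcodes. In the same order it was 6599 and 9043 CPM in T-only and 6156 and 6866 CPM in APC-only barcodes. None of the 6 macrophage markers was past 1.5-fold, at a median of -0.28.

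Some of the largest differences lay in few barcodes. Jchain, the joining chain gene of secreted antibodies, had 5447 UMIs in deficient-labelled and 1 UMI in wild-type-labelled dual barcodes. It was found in 74 deficient-labelled dual barcodes, with 97.8% of the count in 3 of them. Its difference between the libraries was not particular to dual barcodes. T-only barcodes had 1705 CPM in the deficient-labelled and 6.05 in the wild-type-labelled library, and APC-only barcodes 985 and 34.5 CPM. Apol7c had 235 UMIs and 1 UMI, with 66.0% of the deficient-labelled count in 3 barcodes. Others were spread more widely. The interferon-induced GTPase gene Gbp2 had 147 UMIs in 51 deficient-labelled barcodes and 1 UMI in the wild-type-labelled ones, and the macrophage elastase gene Mmp12 had 406 UMIs in 54 barcodes and 0. Retnla, a resistin-like gene of alternatively activated macrophages, had 341 and 0 UMIs, of which 235 lay in 1 barcode. At the other end, the matrix genes Dpt, Sparc, Col1a1, Col1a2 and Clec3b were lower in the deficient-labelled library. Col1a1, a collagen chain gene, had 46 UMIs in the 158 deficient-labelled and 97 in the 17 wild-type-labelled barcodes, all 97 in 1 barcode that also held fibroblast markers.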

How the data were processed

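Polyadenylated RNA of colonic lamina propria cells was captured in droplets with the V3 chemistry of the 10x Single Cell 3' kit, as the labels' protocols state. The deposited matrices give, for 31053 genes, the raw UMI count in each barcode. Per the submitters' processing notes, Cell Ranger, STAR 2.5.1b and the mm10 build were used, and the file headers name software version 3.0.2. For the 36 repeated gene symbols the first row was used.

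Counts were analysed in Python 3.11.15 with numpy 2.4.6, scipy 1.17.1 and pandas 2.3.3, and drawn with matplotlib 3.10.9. Dual barcodes were chosen by raw counts, as the rule states. No doublet was removed and no doublet caller was run, because the rule itself selects barcodes with transcripts of more than 1 cell type. Barcodes were thinned to 2000 UMIs with a fixed seed. UMIs were summed over barcodes of a kind and library. Shares carry Clopper-Pearson intervals, mean counts Poisson intervals and ratios conditional binomial intervals, each exact at 95%. A count of 0 was set at 3 counts in a ratio. With 1 library per group no test was run and barcodes were not used as replicates. Scripts were tested on simulated counts.

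The members, gene lists and measures were chosen with earlier results of these data known. Genes named are a fixed set (Ctla4, Cd28, Icos, Il12b, Flt3, Foxp3, Cd4, Cd8b1, Trac, Trbc2, Cd80, Cd86, Icosl, Ccr7 and Fscn1), up to 4 members per list with the largest ratios among those of at least 20 UMIs in dual barcodes of each library, the 10 highest and 10 lowest against both T-only and APC-only barcodes, and the 5 highest and 5 lowest between libraries at 50 UMIs or more. Variable segments of immunoglobulin and T cell receptor genes, mitochondrial, ribosomal protein and unnamed predicted genes were left out of these ranks. Some genes that these rules name are not reported here. Other list members and genes were named after their values were seen. Trgc1, a member of the helper and cytotoxic list, was not measured. Alternatives changed the Cd3 and H2-Ab1 limits, the depth range, the thinning, the averaging over barcodes and the class mix.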

Additional observations from a re-analysis of the deposited data

Results flagged for a closer look

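Il12b per class II UMI lay on opposite sides of the APC-only level in the 2 libraries. The log2 ratio of dual over APC-only barcodes was 1.11 in the deficient-labelled and -2.16 in the wild-type-labelled library, and the difference itself was not tested. The deficient-labelled value came from 475 UMIs in 23 of 158 dual barcodes, and the wild-type-labelled value from 6 UMIs in 1 of 17. At the deficient-labelled share of barcodes with Il12b, 14.6% (9.46 to 21), the wild-type-labelled share of 5.88% (0.149 to 28.7) had an interval that contained it. No group held enough samples to be examined for a sample far from the others.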

How the results depend on the processing

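The libraries kept the same order of dual shares in all 8 settings. Of 168 alternative values of the principal results 150 stayed within their limits and 18 moved. The limits were the counting interval, the quartiles for depth, or 1.5 times the reported count or share of genes. The setting that left out barcodes found in both libraries removed 0 dual barcodes, so its values could hardly move. Wild-type-labelled Ctla4 kept its sign in 7 of 9 settings, deficient-labelled Flt3 in 8 and wild-type-labelled Flt3 in 5 (-0.14 to 0.34). The dual share of deficient-labelled barcodes with Cd3, 42.4%, was 32.7% with H2-Ab1 over 50 and 34.4% between 2000 and 20000 UMIs. At that depth Ctla4 was at -1.55 in wild-type-labelled barcodes (0.54 as reported), Icos at 0.35 there (0.89), and Il12b at 0.60 (1.11) and Flt3 at -0.75 (-0.21) in deficient-labelled ones. With the class mix matched Flt3 was at 0.059. Deficient-labelled Ctla4 (0.77) was at 0.98 with H2-Ab1 over 5 and 1.53 against T-only barcodes with 0 or 1 H2-Ab1 UMIs. Wild-type-labelled Ctla4 was at 1.05 with H2-Ab1 over 50 and -0.43 as a mean over barcodes. Genes over 1.5-fold from the sum were 11.9% in the wild-type-labelled library, but 26.3% with at least 5 Cd3 UMIs and 24.2% between 2000 and 20000 UMIs. Thinned to 2000 UMIs, the macrophage class held 22.2% and the cDC2 class 8.86% of deficient-labelled dual barcodes, and the cDC2 class 0% of wild-type-labelled ones. With at least 200 UMIs, 257 genes were higher and 124 lower in deficient-labelled dual barcodes, among fewer measured genes. Their number was not counted, so these counts have no share beside them. The causes of the changes were not tested. The 17 wild-type-labelled barcodes limit every comparison with them. No paired analysis was possible because each group was 1 library, and no replicate could be left out.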

Other observations

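In the deficient-labelled library several T cell genes followed the H2-Ab1 count of a barcode also below the limit of the rule. There Ctla4 per 100 T cell receptor constant UMIs was 11.6 in 92 barcodes with 0 or 1 H2-Ab1 UMIs and 24.98 in 123 with 2 to 10. Above the limit it was 34.9 in 69 barcodes with 11 to 100 and 32.4 in 89 with over 100. Tnfrsf4 was at 2.39, 8.83, 10.51 and 19.98 in the same bins, and Il2ra at 3.14, 5.80, 10.8 and 13.2. Foxp3 was at 1.89, 2.44, 2.39 and 5.61. Xcl1 took another course, at 12.45, 25.99, 4.46 and 5.50. Depth moved along, with medians of 4374.5, 5040, 11660 and 20915 UMIs in the bins, and its part in these levels was not tested. The wild-type-labelled bins held 64, 16, 9 and 8 barcodes, and the genes differed there. Ctla4 at 15.3, 33.7, 7.95 and 56.1 and Tnfrsf4 at 8.25, 5.23, 4.55 and 7.02 gave no such order. Foxp3 rose from bin to bin, at 1.33, 1.74, 5.68 and 7.02, but from 11, 3, 5 and 4 UMIs. Il2ra was lowest in the first and highest in the last bin, at 1.82, 4.07, 3.41 and 10.53, from 15, 7, 3 and 6 UMIs.

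Within a class of antigen-presenting cell, deficient-labelled dual barcodes differed from APC-only barcodes in several genes per class II UMI. In the macrophage class (52 dual and 625 APC-only barcodes) Il12b was higher at a log2 ratio of 1.30 (0.99 to 1.61), Flt3 at 1.26 (0.78 to 1.72), Ccr7, which T cells also express, at 1.10 (0.97 to 1.23) and Il23a at 0.94 (0.46 to 1.40). The Il12b UMIs lay in 7 of the 52 dual barcodes (13.5%, 5.59 to 25.8). The cDC2 marker Cd209a moved along in this class, with 4.46 UMIs per dual barcode (55.8% with a UMI) against 1.24 per APC-only barcode (24.0%), and its part in the Il12b and Flt3 ratios was not tested. There the interferon-induced chemokine gene Cxcl9 was lower at -2.44 (-3.51 to -1.55) and C1qa at -0.48 (-0.58 to -0.39). In the cDC2 class (42 and 833 barcodes) Il10 was higher at 2.02 (1.77 to 2.26), Il12b at 0.43 (0.11 to 0.74) and Cd80 at 0.40 (0.14 to 0.65), and Flt3 was lower at -0.54 (-1.09 to -0.03). In deficient-labelled barcodes without a class (38 dual and 817 APC-only) Il12b was higher still, at 1.96 (1.72 to 2.20) from 176 dual UMIs. The 9 dual barcodes of the cDC1 class had 0 Il12b UMIs, against 0.76 per APC-only barcode. The excess of Il12b was thus not particular to the macrophage class. In the wild-type-labelled macrophage class 7 dual barcodes had 0 Il12b UMIs, and Flt3 was at -0.80 from 1 UMI. The intervals cover counting error only, and Il10 is made by T cells as well.

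Genes farthest from the summed T-only and APC-only means in the deficient-labelled library were picked after their values were seen. Above the sum, the goblet cell genes Agr2 and Spink4 and the pentraxin gene Mptx1 had over 90% of their UMIs in 3 dual barcodes each. Il1rl1, the interleukin 33 receptor gene, was at 1.51 with UMIs in 45 barcodes, and Ccr6 was at 1.14 in 19. Below it, the neutrophil genes S100a8 and S100a9 were at -4.41 and -3.40, from 9 and 28 dual UMIs. The natural killer cell genes Klrc1 and Klra7 were at -2.17 and -2.04. Gzma, a granzyme gene of cytotoxic cells, was at -3.19, with 374 T-only UMIs in 9 barcodes. The T cell marker genes Bcl11b, Cd5 and Cd6 were above by over 1.5-fold, 3 of 12 measured members of their list. In the wild-type-labelled library 7 members of that list were measured, with 0 above and 3 below, at a median of -0.37.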
